A study of Ambystoma mexicanum with 8 samples.

Results

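Wnt proteins are secreted ligands that bind Frizzled receptors on nearby cells. Canonical ligands, such as Wnt3 and Wnt9a, act with co-receptors of the LDL-receptor family to stabilise β-catenin, whereas Wnt5a mainly signals without β-catenin and is known for steering cell polarity and the outgrowth of the limb bud. Dkk1 is a secreted inhibitor that occupies the same co-receptors, so it blocks the canonical branch, and forced expression of *Dkk1* is known to block limb regeneration in the axolotl. The expression of 4 assembled transcripts of this pathway was followed here, out of 91843 in the deposited tables. They were the non-canonical ligand *wnt5a* (contig TR21646|c2_g1_i1), the canonical ligands *wnt9a* (TR12368|c1_g1_i1) and *wnt3* (TR6255|c0_g1_i1), and the inhibitor *dkk1* (TR13348|c0_g1_i1). They were taken because the study's own list of transcripts differing between its groups gives them Wnt or Dickkopf protein names, so they were selected on the measured difference between the groups in these same libraries. For that reason their fold changes are given as descriptions. No other Wnt, Dickkopf, Frizzled or β-catenin name occurs among the 490 named entries of that list that were matched to a transcript, and other members of the pathway were not analysed here.

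All libraries came from the limb stump of the axolotl (*Ambystoma mexicanum*), of wild-type genotype and leucistic strain, at 3 days post-amputation. In the repeatedly amputated group (Multi-amp, 4 libraries named MR), limbs with 5 amputations behind them that had failed to regenerate were cut a 6th time, so this group is selected for failure. In the control group (Control, 4 libraries), limbs of age- and size-matched relatives were cut for the first time. The 8 libraries were made from separate animals, and the local tissue next to the cut was taken. The question behind the comparison was which genes differ early after injury in limbs that no longer regenerate. Summed expected counts ran from 15596527 to 17980271 in repeatedly amputated limbs and from 16765785 to 18437103 in control limbs. Reads were assembled without a genome, so each transcript is known by its contig and by the most similar protein of another species, and no genome position is given. Separately, the RefSeq annotation of the axolotl genome (assembly UKY_AmexF1_1) has 19 gene symbols of the WNT family and 4 of the DKK family, and it places WNT3 between WNT9B and NSF. Because the tissue was sequenced in bulk, fewer cells of a type and less RNA per cell cannot be told apart.

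*Wnt5a*, *wnt9a* and *dkk1* were each about 4 times as abundant in repeatedly amputated limbs as in control limbs, and *wnt3* had no more than 1 count in any repeatedly amputated limb. Of the named ligands, *wnt5a* and *wnt9a* stood on the same side as the inhibitor, and *wnt3* on the opposite side. The study had chosen them on these same differences, and *wnt3* had few counts, mostly in Control6, so nothing more is read from these directions. Expression is given as CPM, counts per 1000000 counts of a library scaled by the trimmed mean of M-values (TMM), unless FPKM or unscaled CPM is named.

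*Wnt5a* had 4.62, 4.0, 4.48 and 1.94 CPM in MR2, MR5, MR6 and MR14, against 0.962, 1.27, 0.751 and 1.13 CPM in Control1, Control3, Control4 and Control6. Every repeatedly amputated library was above every control library, and MR14 lay well below the other 3 of its group. The means were 3.76 ± 1.24 CPM in repeatedly amputated limbs and 1.03 ± 0.225 CPM in control limbs (SD, n = 4 each). Its log2 fold change was 1.86 (SE 0.317), and the lowest repeatedly amputated library was 1.52 times the highest control library. These values rest on 30 to 76 counts in repeatedly amputated limbs and 13 to 24 in control limbs. The counts varied with a coefficient of variation of 35.2% in repeatedly amputated limbs, where counting alone gives 12.8%, and of 24.4% in control limbs, where counting alone gives 23.2%. These are unscaled counts of separate animals, and the spread was not tested between the groups.

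*Wnt9a*, a ligand that acts in the joints of the mouse skeleton, had 0.973, 2.86, 3.11 and 1.81 CPM in MR2, MR5, MR6 and MR14, against 0.748, 0.371, 0.577 and 0.714 CPM in Control1, Control3, Control4 and Control6. The groups did not overlap, but the lowest repeatedly amputated library, MR2, was only 1.30 times the highest control library, Control1. The order of the repeatedly amputated libraries was not that of *wnt5a*: MR2 was highest for *wnt5a* and lowest for *wnt9a*. Mean expression was 2.19 ± 0.985 CPM in repeatedly amputated limbs and 0.603 ± 0.171 CPM in control limbs (SD, n = 4 each), a log2 fold change of 1.85 (SE 0.409). In control limbs 7 to 14 counts stood behind each value, and their coefficient of variation of 27.8% was no larger than the 30.5% that counting alone gives.

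*Dkk1* had 2.61, 6.74, 3.59 and 1.36 CPM in MR2, MR5, MR6 and MR14, against 1.02, 0.743, 1.21 and 0.595 CPM in Control1, Control3, Control4 and Control6. Of the 3 transcripts with enough counts for the fit, it was the most uneven in repeatedly amputated limbs: MR5 alone held 47.1% of the group's summed CPM, and MR14 lay close to the control limbs. In counts, MR14 and Control4 had 21 each, so there the groups differed in CPM by library size alone, and the lowest repeatedly amputated CPM was 1.12 times the highest control CPM. The means were 3.57 ± 2.30 CPM in repeatedly amputated limbs and 0.891 ± 0.276 CPM in control limbs (SD, n = 4 each). The log2 fold change was 1.99 (SE 0.489), and it was 1.49 without MR5. The biological coefficient of variation estimated in the fit was 48.3% for *dkk1*, 38.7% for *wnt9a* and 32.8% for *wnt5a*.

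**Figure D1:**
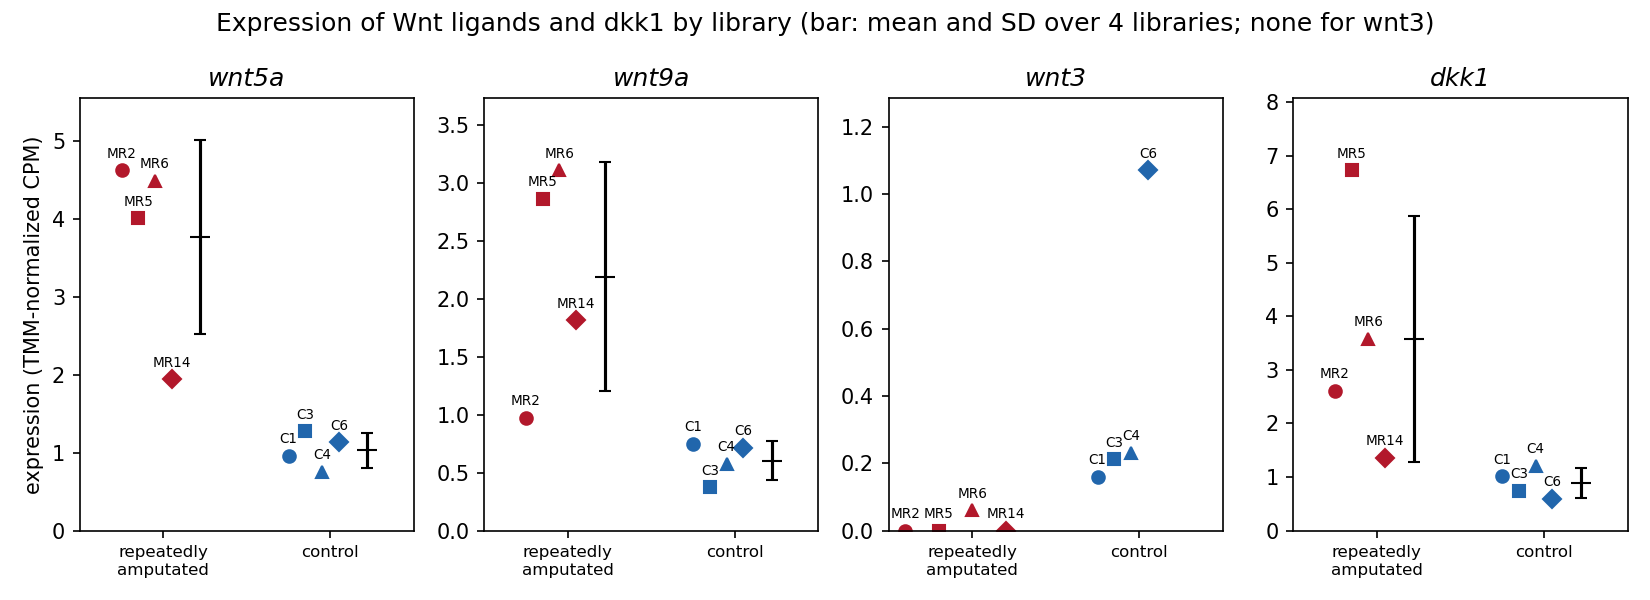
TMM-normalized CPM (vertical axes, each with its own range) of *wnt5a*, *wnt9a*, *wnt3* and *dkk1* in the 4 repeatedly amputated (red) and 4 control (blue, C for Control) libraries, 1 point a library, with the group mean and SD as black bars except for *wnt3*. *Wnt5a*, *wnt9a* and *dkk1* were higher in every repeatedly amputated library than in any control library, with MR14 of *dkk1* at 1.36 CPM close to Control4 at 1.21 CPM, whereas *wnt3* was above 0 in 1 repeatedly amputated library and in all 4 control libraries.

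*Wnt3*, a ligand of the limb bud epidermis in the mouse, had 0, 0, 1 and 0 counts in MR2, MR5, MR6 and MR14, against 3, 4, 4 and 18 in the control libraries 1, 3, 4 and 6. In CPM this was 0.0598 in MR6 and 0 in the other 3 repeatedly amputated libraries, against 0.160, 0.212, 0.231 and 1.07 in Control1, Control3, Control4 and Control6. All control libraries were above all repeatedly amputated ones, but Control6 carried 64.0% of the summed control CPM, and the other 3 control libraries had no more than 4 counts each. A library with 0 counts could still hold 3, which is 0.182 CPM in MR2, 0.191 CPM in MR5 and 0.194 CPM in MR14. So for Control1, Control3 and Control4 the difference was at the edge of what this depth can show. The 18 counts of Control6 have an exact 95% Poisson interval of 10.7 to 28.4. Over the pooled counts, 1 against 29, expression in repeatedly amputated limbs was 0.0384 times that in control limbs (exact 95% interval 0.00094 to 0.232, counting error only). Without Control6 the pooled counts were 1 against 11, and the ratio was 0.0775 (0.00180 to 0.533). The transcript had too few counts for the filter of the fit. Fitted with edgeR's quasi-likelihood test and no filter, it had a log2 fold change of -4.20 (adjusted p = 0.290), and when 10 summed counts were required it had -4.19 (adjusted p = 0.335).

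Of the 4 transcripts, 3 passed the filter and entered the fit over 32757 transcripts. By edgeR's quasi-likelihood test, 0 of the 3 had an FDR under 0.05 (adjusted p = 0.20 for *wnt5a* and 0.281 for *wnt9a* and for *dkk1*), against 0.0122% of all transcripts tested. At an unadjusted p under 0.05, 3 of 3 were higher. Of all transcripts tested, 11.1% passed this threshold, 6.47% as higher and 4.67% as lower in repeatedly amputated limbs. With edgeR's exact test 3 of 3 were called at FDR 0.05, against 1.18% of all, and with DESeq2's Wald test 3 of 3, against 2.32% of all. On simulated data the exact test and DESeq2 made more false calls at FDR 0.05 than the quasi-likelihood test (64 and 90, against 10). They also recovered more of the 200 simulated 4-fold changes (82.5% and 80%, against 66%). The libraries of the groups did not overlap, being higher in repeatedly amputated limbs, for these 3 transcripts, against 3.29% of all tested (3.08% in the lower direction). They did not overlap in the lower direction for *wnt3*, against 1.96% of all 90843 transcripts with a count (3.11% in the higher direction). Nothing is read from these counts, since this same contrast had chosen the transcripts.

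The log2 fold changes were also computed with each library left out in turn. For *wnt5a* they ran from 1.75 without Control4 to 2.08 without MR14, for *wnt9a* from 1.64 without MR6 to 2.10 without MR2, and for *dkk1* from 1.49 without MR5 to 2.26 without MR14. The library that mattered most was thus not the same for the 3 transcripts.

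**Figure D2:**
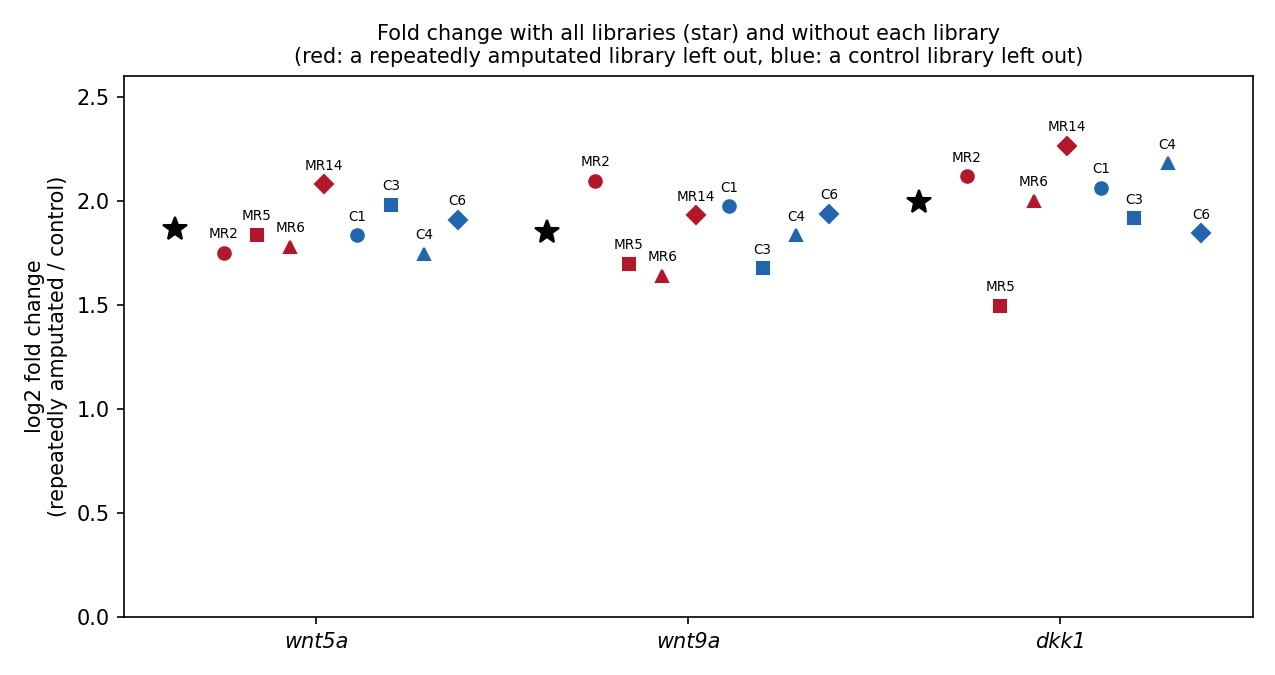
Log2 fold change of repeatedly amputated over control limbs (vertical axis) of *wnt5a*, *wnt9a* and *dkk1* with all 8 libraries (star) and with 1 library left out, red for a repeatedly amputated and blue for a control library (C for Control). All values stayed between 1.49 and 2.26, and the lowest, for *dkk1*, was the one without MR5.

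Levels of different transcripts were compared per length, as the deposited FPKM. Mean FPKM in repeatedly amputated limbs was 3.36 ± 1.14 for *wnt5a*, 1.75 ± 0.751 for *wnt9a* and 3.36 ± 2.02 for *dkk1*, and in control limbs it was 0.967 ± 0.220, 0.518 ± 0.162 and 0.894 ± 0.275 for the same transcripts (SD, n = 4 each). Ranked among all 91843 transcripts, the mean FPKM of *wnt5a* exceeded that of 83.9% in repeatedly amputated limbs and of 50.8% in control limbs. For *wnt9a* the shares were 73.4% in repeatedly amputated limbs and 21.2% in control limbs, and for *dkk1* they were 83.9% in repeatedly amputated limbs and 46.7% in control limbs. Among the 32757 transcripts with enough counts to be tested the shares were lower. In repeatedly amputated limbs they were 56.9% for *wnt5a*, 34.9% for *wnt9a* and 56.9% for *dkk1*. In control limbs they were 10.4%, 1.55% and 8.23% for the same transcripts. *Wnt3* had 0.044 ± 0.088 FPKM in repeatedly amputated limbs and 1.27 ± 1.31 FPKM in control limbs (SD, n = 4 each). Among all 91843 transcripts its shares were 3.40% in repeatedly amputated limbs and 63.0% in control limbs, the latter above those of *wnt5a* and *dkk1*. That control mean rests largely on Control6, which held 63.5% of the summed control FPKM of *wnt3*. By control medians *wnt3* was the lower, with 0.66 FPKM against 0.91 for *dkk1* and 1.01 for *wnt5a*. In Control4 and Control6 *wnt3* was above *wnt5a* (0.677 against 0.667 and 3.23 against 1.05 FPKM).

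The order of levels within a library was not used to choose the transcripts, so it was tested over the 8 libraries with an exact two-sided sign-flip permutation test of differences in log2(FPKM + 0.1), adjusted over 3 pairs. *Wnt5a* was above *wnt9a* in 8 of 8 libraries, by 0.87 on the log2 scale (SD 0.703, adjusted p = 0.0234, exact). The unadjusted p of 0.00781 is the smallest that 8 libraries can give. *Dkk1* was above *wnt9a* in 6 of 8 libraries, by 0.75 (SD 0.644, adjusted p = 0.0469, exact), and this call was lost, with an adjusted p of 0.0938, when any one of MR2, MR5, MR6, Control1, Control3 or Control4 was left out. *Wnt5a* and *dkk1*, both above *wnt9a* on average, did not differ beyond their spread: *wnt5a* was the higher in 5 of 8 libraries, by 0.12 (SD 0.625, adjusted p = 0.586, exact). *Wnt3* was not among the tested pairs.

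The median ratios between these transcripts were close in both groups. All of them were chosen on this contrast and had similar fold changes, so the close medians restate those fold changes and nothing is read from them. The ratio of *wnt5a* to *dkk1* in FPKM had a median of 1.25 (0.555 to 1.65) in repeatedly amputated limbs and of 1.25 (0.576 to 1.78) in control limbs. *Wnt9a* over *dkk1* had a median of 0.548 (0.315 to 1.14) in repeatedly amputated limbs and of 0.527 (0.407 to 1.02) in control limbs. Within either group the ratio of *wnt5a* to *dkk1* differed between libraries by about 3 times, so the medians matched while single limbs did not. The inhibitor exceeded *wnt5a* in MR5, where *dkk1* had 6.09 FPKM and *wnt5a* 3.38 FPKM, and in Control1 and Control4.

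**Figure D3:**
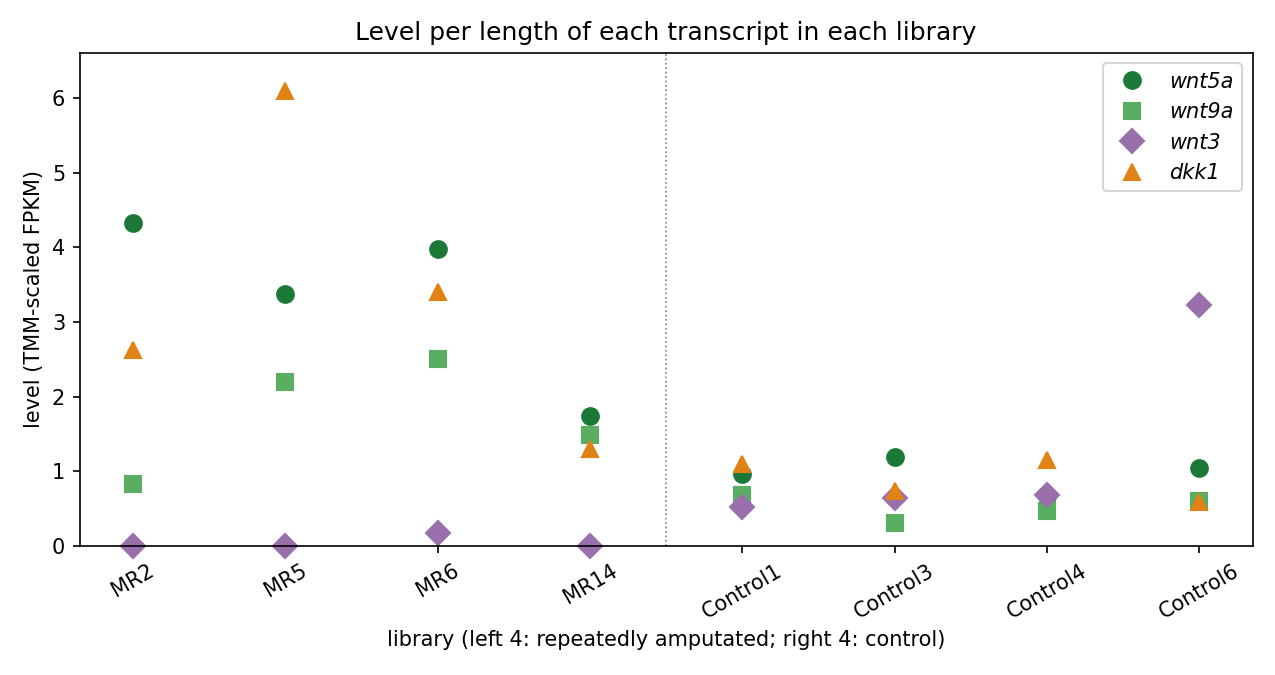
Level per length (TMM-scaled FPKM, vertical axis) of *wnt5a*, *wnt9a*, *wnt3* and *dkk1* in each library, with the 4 repeatedly amputated libraries left and the 4 control libraries right of the dotted line. *Wnt5a* lay above *wnt9a* in all 8 libraries, *dkk1* was highest in MR5 at 6.09 FPKM, and *wnt3* was highest in Control6 at 3.23 FPKM.

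The makeup of the named ligands differed between the groups through *wnt3*. These ligands were chosen on this same contrast, so the shift restates their fold changes and nothing is read from it. Of the summed FPKM of *wnt5a*, *wnt9a* and *wnt3*, *wnt3* made up 0, 0, 2.65% and 0 in MR2, MR5, MR6 and MR14, against 24.1%, 30.2%, 37.3% and 66.2% in Control1, Control3, Control4 and Control6. *Wnt5a* made up 64.6% ± 13.2 in repeatedly amputated limbs and 39.5% ± 14.2 in control limbs (SD, n = 4 each). The summed ligand level overlapped between the groups, with 5.16, 5.58, 6.65 and 3.22 FPKM in MR2, MR5, MR6 and MR14, against 2.18, 2.15, 1.82 and 4.87 FPKM in Control1, Control3, Control4 and Control6. Control6 lay above MR14. These shares lean on few fragments of a short contig: in Control6, 18 counts of *wnt3* over an effective length of 327 bases gave 3.23 FPKM, and 19 counts of *wnt5a* over 1088 bases gave 1.05 FPKM. The effective lengths were inferred from the ratio of counts to FPKM and had a median of 1200 bases for *wnt9a* and 1019 bases for *dkk1*.

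Across libraries within the groups the transcripts did not share 1 pattern. After the group means were subtracted, the log2 CPM of *wnt5a* and *wnt9a* had a correlation of r = -0.06 over the 8 libraries. *Wnt9a* with *dkk1* had r = 0.44. *Wnt5a* with *dkk1* had r = 0.41, which describes neither group, since r was 0.70 over the 4 repeatedly amputated libraries and -0.86 over the 4 control libraries. In control limbs the counts of *wnt5a* and *dkk1* had coefficients of variation of 24.4% and 31.0%, where counting alone gives 23.2% and 25.0%. Counting error thus makes up much of the spread behind the control r. All these r values are descriptions over few libraries, which all 3 pairs share, and no test was made of them.

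*Wnt5a* was not the only contig of its read cluster, the set of reads that the assembler kept together. Cluster TR21646 held 8 contigs, of which 6 passed the filter, and 8 of 8 had no overlap between the groups in CPM, being higher in repeatedly amputated limbs, against 3.11% of all transcripts with a count. In counts, c0_g1_i1 had 28 in MR14 and 30 in Control1, and c0_g2_i1 had 38 in MR14 and 39 in Control6. Contig c1_g1_i1 had 29 in MR2 and in Control6, and c6_g1_i1 had 3 in MR14 and in Control4. These contigs were apart in CPM by library size alone, and the rest of the cluster also in counts. The log2 fold changes of the 5 tested contigs beside *wnt5a* were 1.38 (SE 0.419), 1.43 (SE 0.429), 1.47 (SE 0.407), 1.83 (SE 0.354) and 2.04 (SE 0.524). At an unadjusted p under 0.05 all 6 were higher, against 6.47% of all transcripts tested, and 0 had an FDR under 0.05 by the quasi-likelihood test. Besides *wnt5a*, 2 of these contigs are on the study's list of differing transcripts, without a protein name, and contigs of 1 cluster are not independent. Summed over the 8 contigs, expression was 17.6, 25.2, 27.1 and 11.5 CPM in MR2, MR5, MR6 and MR14, against 5.98, 6.68, 4.5 and 8.86 CPM in Control1, Control3, Control4 and Control6. The whole cluster was 3.12 times as high in repeatedly amputated limbs as in control limbs, with MR14 again the lowest of its group.

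The contigs of this cluster did not all have the same pattern over the libraries. Contig c1_g1_i1 had 29, 100, 71 and 31 counts in MR2, MR5, MR6 and MR14, against 22, 22, 22 and 29 in Control1, Control3, Control4 and Control6. MR5 held 43.3% of its repeatedly amputated counts and 42.4% of those of c0_g1_i1, against 25.8% of those of *wnt5a*. Contigs c3_g1_i1 and c4_g1_i1 followed *wnt5a* more closely. The within-group deviations of *wnt5a* had r = 0.91 with c4_g1_i1 and r = 0.83 with c3_g1_i1, but r = 0.49 with c0_g1_i1 and r = 0.33 with c1_g1_i1, while c0_g1_i1 and c1_g1_i1 had r = 0.89 with each other (n = 8 libraries, no test). Contig c0_g2_i1 lay between, with r = 0.59 with *wnt5a*. It had r = 0.81 with c4_g1_i1, 0.83 with c3_g1_i1, 0.47 with c0_g1_i1 and 0.42 with c1_g1_i1. Whether all 8 contigs are pieces of *wnt5a* was not tested. Among the 60 read clusters with at least 2 named entries, 44 (73.3%) carried a single protein name, so a shared cluster is no proof of a shared gene, and the other contigs were left without a name.

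**Figure D4:**
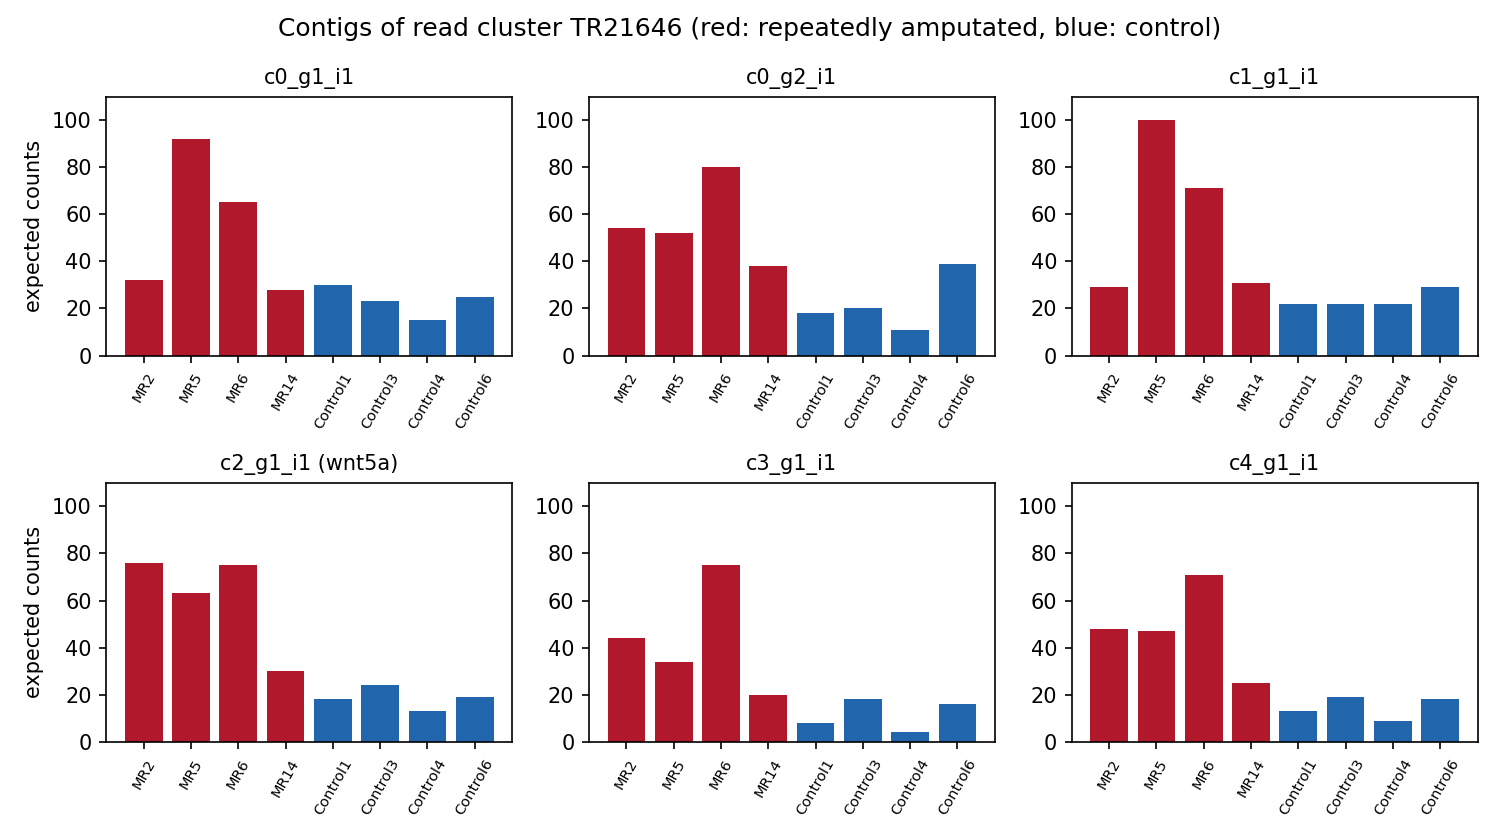
Expected counts (vertical axis, the same range in each panel) of the 6 tested contigs of read cluster TR21646 in the 4 repeatedly amputated (red) and 4 control (blue) libraries. Contigs c0_g1_i1 and c1_g1_i1 were highest in MR5, with 92 and 100 counts, *wnt5a* in MR2 with 76, and the other 3 in MR6, with 80, 75 and 71.

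The read cluster of *wnt9a* held 4 other contigs, none with enough counts to be tested. The largest, c0_g2_i1, had 12, 29, 33 and 8 counts in MR2, MR5, MR6 and MR14, against 9, 5, 9 and 3 in Control1, Control3, Control4 and Control6. MR6 and MR5 were its highest libraries, as they were for *wnt9a*, and the groups overlapped. Over all 5 contigs the sum was 4.02 ± 1.97 CPM in repeatedly amputated limbs and 1.16 ± 0.358 CPM in control limbs (SD, n = 4 each). The clusters of *wnt3* and *dkk1* held a single contig each.

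The named transcripts most like *wnt5a* in their within-group deviations were those of amphiregulin, an epidermal growth factor receptor ligand (r = 0.86), and pleckstrin-2 (r = 0.83), followed by GNA1, LITAF and TOR3A. For *wnt9a* they were the prostaglandin E2 receptor EP3 (r = 0.94), an immunoglobulin heavy chain (r = 0.86), MXRA5, AIF1L and LAMB3. For *dkk1* they were IOD3, a deiodinase that inactivates thyroid hormone (r = 0.89), the adaptor SHC4 (r = 0.86), interleukin-8, GNA1 and the interleukin-6 receptor subunit beta. These were the highest of 258 named transcripts over 8 libraries. The transcripts of GNA1 and of the interleukin-6 receptor subunit beta were at 0 in all control libraries, so their likeness rests on the repeatedly amputated libraries alone. Another GNA1 entry of the study's list was lower in repeatedly amputated limbs. With so few libraries high values are common: 1.22% of all tested transcripts were at least as close to *wnt5a* as amphiregulin, 0.168% as close to *wnt9a* as the EP3 receptor and 0.412% as close to *dkk1* as IOD3. Amphiregulin itself had 25.0 ± 14.9 CPM in repeatedly amputated limbs and 5.48 ± 1.62 CPM in control limbs (SD, n = 4 each).

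A hand-picked list of other secreted signals was set beside *wnt5a*, *wnt9a* and *dkk1*. Of its 15 transcripts 13 were tested, and 13 of 13 were higher at an unadjusted p under 0.05, against 6.47% of all transcripts tested, with 0 at an FDR under 0.05 by the quasi-likelihood test. Their median log2 fold change was 2.15, against -0.0065 over all transcripts tested. The range ran from 1.39 (SE 0.271) for HGFL, macrophage-stimulating protein, to 3.80 (SE 1.33) for adiponectin. Chordin-like 1, which binds bone morphogenetic proteins, had 3.46 (SE 1.08), and semaphorin SEM3B had 1.61 (SE 0.349). All its members come from the study's list of transcripts differing in these libraries, and other secreted proteins there, such as resistin, were left out, so the uniform direction comes from the choice of members and nothing is read from it.

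Transcripts for heparan sulfate, Wnt-linked and receptor proteins were mostly too rare to test. Of 8 such transcripts, also taken from the study's list of differing transcripts, 2 were tested and 2 were higher at an unadjusted p under 0.05, against 6.47% of all transcripts tested. Their choice on this same contrast fixed that count in advance, so nothing is read from it. HS3SA, an enzyme that modifies the heparan sulfate chains to which secreted ligands bind, had 2.08 ± 0.566 CPM in repeatedly amputated limbs and 0.286 ± 0.168 CPM in control limbs (SD, n = 4 each), a log2 fold change of 2.81 (SE 0.421). A transcript of the interleukin-6 receptor subunit beta (contig TR25217|c0_g1_i2) averaged 3.96 ± 4.90 CPM in repeatedly amputated limbs, and all control libraries were at 0. It thus passed the filter through the repeatedly amputated libraries alone. Other isoforms of its assembled gene were not analysed here, so this does not give the level of the whole gene. Among those not tested, GPC5, a glypican that carries such chains, averaged 0.469 ± 0.159 CPM in repeatedly amputated limbs and 0.0841 ± 0.0336 CPM in control limbs. KI26B, a kinesin acted on by Wnt5a signalling in mouse cells, averaged 0.708 ± 0.792 CPM in repeatedly amputated limbs and was at 0 in all control libraries, but the groups overlapped. NETO2, an auxiliary subunit of kainate receptors, stood on the opposite side without overlap, with 0.0615 ± 0.0497 CPM in repeatedly amputated limbs and 0.493 ± 0.293 CPM in control limbs.

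Markers of the tissues in the stump differed between the libraries as well. All marker sums here are in unscaled CPM, relative to the summed counts of a library without TMM, whereas the *dkk1* values beside them are TMM-scaled. The summed unscaled CPM of 46 muscle transcripts was 361 to 8370 in repeatedly amputated limbs and 21.9 to 765 in control limbs. Of the 46, 3 were at 0 in all control libraries. Cartilage transcripts (11, of which 3 were at 0 in all control libraries) summed to 10.9 to 175 CPM in repeatedly amputated limbs and 1.37 to 2.33 CPM in control limbs. Both sums were highest in MR5, the library with the most *dkk1*, but in other libraries the orders differed. MR14, with the least *dkk1* of its group, had a muscle sum of 6034 CPM, against 1763 CPM in MR2. MR6, with the lowest cartilage sum of its group, had more *dkk1* than MR2 (3.59 against 2.61 CPM). The muscle sum was lowest in MR6 among repeatedly amputated limbs, the library with the most *wnt9a*. Keratin and mucin transcripts (9, of which 2 were at 0 in all repeatedly amputated libraries) summed to 112 to 434 CPM in repeatedly amputated limbs and 913 to 4095 CPM in control limbs. Their sum in Control6, the library with the most *wnt3*, was the lowest of the control limbs. Immunoglobulin transcripts (8, none at 0 throughout a group) summed to 149 to 274 CPM in repeatedly amputated limbs and 560 to 921 CPM in control limbs. At an unadjusted p under 0.05, 26 of 26 tested muscle, 3 of 3 cartilage and 2 of 5 keratin and mucin transcripts were higher, while 8 of 8 immunoglobulin and 3 of 5 keratin and mucin transcripts were lower. Over all transcripts tested, 6.47% were higher and 4.67% lower at this threshold. All these markers carry names because the study listed them as differing in this contrast, so their counts were fixed by that choice and nothing is read from them. The part of these tissues in the values of *wnt5a*, *wnt9a*, *wnt3* and *dkk1* was not tested.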

How the data were processed

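RNA from 8 axolotl limb stumps was sequenced as paired-end reads. The authors assembled the reads with Trinity, annotated contigs with Trinotate, and deposited expected counts from RSEM, not normalized (91.5% of values were whole), and FPKM scaled between libraries by TMM. The submitters' processing notes name CASAVA 1.8.2 and RSEM. Column names gave the group of each library but no sample, so they were mapped to groups only. Both tables have 8 columns, all used. Protein names came from the study's list of 912 differing transcripts by matching its mean FPKM plus 1 to the deposited values (tolerance 1e-06), and 892 entries matched a single transcript. The list's own fold changes were not used.

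Expected counts were rounded to whole numbers, filtered with filterByExpr, scaled by TMM and fitted with the robust quasi-likelihood F-test of edgeR 4.0.16 (R 4.3.3), with Benjamini-Hochberg adjustment over 32757 transcripts. Effects are log2 fold changes of repeatedly amputated over control limbs. The exact test, DESeq2 1.42.0, limma 3.58.1 on log2(FPKM + 1) and log2(FPKM + 0.1), other scalings and filters, sums per assembled gene and leaving out each library were alternatives. The count tests were tested on simulated data. Levels were compared by exact sign-flip tests in Python 3.11.15. For correlations, deviations were taken in log2 CPM (prior count 2).

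The members and the lists (secreted signals, Wnt-linked and receptors, muscle, cartilage, immunoglobulin, epidermal keratin and mucin) were chosen with earlier results of these data known. Named beside the members are, for each, the 5 named transcripts with the most similar within-group deviations, and up to 4 examples a list (highest and lowest fold changes), and other list members given by CPM were chosen after their values were seen. A count of 0 was read as up to 3 counts. Intervals cover counting error only.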

Additional observations from a re-analysis of the deposited data

Results flagged for a closer look

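In control limbs, 1 library stood far from the other 3 for *wnt3*: Control6 had 1.07 CPM, against 0.160 to 0.231 CPM in Control1, Control3 and Control4. In repeatedly amputated limbs, MR6 stood apart for *wnt3* with 0.0598 CPM, which is 1 count, while the other 3 libraries were at 0. Both were found by the gap of the highest library to its neighbour relative to the range of the group (Dixon's limit for 4 samples). Chance exceeds this limit in about 1 in 20 or fewer groups of normally distributed values, and low counts need not follow that distribution. For MR6 any single count beside 3 libraries at 0 meets this limit, so nothing is read from it. Without Control6 the ratio of *wnt3* in repeatedly amputated over control limbs was 0.0775, against 0.0384 with it.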

How the results depend on the processing

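No direction of *wnt5a*, *wnt9a*, *wnt3* or *dkk1* turned round under any alternative run. The count of transcripts called at an adjusted p under 0.05 was 4 with the quasi-likelihood test, 21 with no filter, 9 with at least 10 summed counts, 759 with DESeq2, 387 with edgeR's exact test, 11 and 10 with limma on FPKM with a pseudocount of 1 and of 0.1, and 2 (without MR5) to 14 (without Control1) with 1 library left out. Of transcripts at an unadjusted p under 0.05, 58.1% were higher in repeatedly amputated limbs, and 42.2% on log2(FPKM + 1). On log2(FPKM + 1), where the pseudocount compresses low levels, the log2 differences were 1.11 for *wnt5a*, 0.82 for *wnt9a*, 1.1 for *dkk1* and -0.98 for *wnt3*, which had -3.02 on log2(FPKM + 0.1). With 1 library left out, the log2 ratio of *wnt3* ran from -4.98 to -3.69 (without Control6), and without MR6 it had no value, as its counts were 0. *Wnt3* was fitted at -4.20 with no filter (adjusted p = 0.290) and at -4.19 with at least 10 summed counts (adjusted p = 0.335), and it was filtered out under DESeq2, the exact test and sums per assembled gene. With 1 library left out, *wnt5a* stayed above *wnt9a* by 0.67 to 0.96 and *dkk1* above *wnt9a* by 0.63 to 0.88. No paired analysis was made, since the libraries came from separate animals. The column names give no pairing and share a single number between the groups, in MR6 and Control6. Depth limits *wnt3* most, and the names of single contigs rest on similarity to proteins of other species.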
